A study of Drosophila melanogaster with 2 samples.

Results

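The mitochondrial ribosomal protein genes of Drosophila melanogaster were taken as the protein-coding genes whose symbol begins with mRpS or mRpL and a number, which gave 73 of the 13968 protein-coding genes of the Ensembl annotation. Of these, 26 encode proteins of the small subunit (mRpS) and 47 proteins of the large subunit (mRpL). Binding near them was read from chromatin immunoprecipitation sequencing (ChIP-seq) of tramtrack (ttk), a repressor of transcription with a BTB domain and zinc fingers. The material was whole embryos collected from 0 to 24 h of development, from the strain ttk-GFP, in which an insertion targeting ttk yields a fusion with eGFP. The precipitation used an antibody against GFP, and the 2 libraries of the single group are labelled biological replicates 1 and 2. All cell types of the embryo were mixed over all of embryogenesis, so strong binding in few cells and weak binding in many cannot be told apart. No second condition was analysed here.

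The mitochondrial ribosome translates the few proteins encoded by mitochondrial DNA, which are core subunits of the respiratory chain and of the ATP synthase. Its RNAs are mitochondrial, whereas all of its proteins are encoded in the nucleus, translated in the cytoplasm and imported. The small subunit reads the messenger RNA, and the large subunit joins the amino acids and holds the exit tunnel. Some of its proteins have a bacterial counterpart of the same number, and others, among them mRpL37, mRpL39, mRpL41, mRpS23, mRpS26 and mRpS31, have none.

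A gene is called promoter-bound here when a peak summit of the authors' conservative list lay within 500 bp of one of its annotated transcription start sites (TSSs). The signal of a peak is the authors' own value, whose normalization the sources used here do not state. It serves to rank peaks within a list and, in log2 ratios, to set the replicates side by side. Positions are distances from the member's nearest TSS, negative upstream, and coordinates are in dm6. The sequences below are the 60 bases on each side of the strongest summit of 5 members with strong summits, on the strand of the member. They show the AT-rich sequence under the upper group of summits described further on. Capitals mark AAATTAA or its reverse complement TTAATTT, with overlapping matches joined, a word chosen after the sequences were compared. They are the windows chr3R:15229477-15229597 for mRpS10, chr2L:13835399-13835519 for mRpS23, chr3L:13018081-13018201 for mRpL20, chr2L:4945430-4945550 for mRpL24 and chr2L:4850516-4850636 for mRpS2.
mRpS10: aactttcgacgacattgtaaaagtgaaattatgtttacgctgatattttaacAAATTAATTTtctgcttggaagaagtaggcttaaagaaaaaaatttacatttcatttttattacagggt
mRpS23: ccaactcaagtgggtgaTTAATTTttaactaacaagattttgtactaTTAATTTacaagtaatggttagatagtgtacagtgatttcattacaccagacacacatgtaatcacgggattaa
mRpL20: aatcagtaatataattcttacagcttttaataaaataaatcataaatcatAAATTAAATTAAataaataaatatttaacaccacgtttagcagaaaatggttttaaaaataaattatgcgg
mRpL24: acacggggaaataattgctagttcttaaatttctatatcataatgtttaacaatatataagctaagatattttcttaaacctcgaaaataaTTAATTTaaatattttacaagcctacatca
mRpS2: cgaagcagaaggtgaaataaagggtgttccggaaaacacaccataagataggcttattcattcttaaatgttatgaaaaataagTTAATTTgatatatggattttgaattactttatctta

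Of the 73 genes, 18 were promoter-bound (24.7%, exact 95% interval 15.3% to 36.1%), against 14.2% of all protein-coding genes. The interval treats genes as independent and covers counting only. The small subunit had 8 of 26 genes bound (30.8%, 14.3% to 51.8%) and the large subunit 10 of 47 (21.3%, 10.7% to 35.7%), with intervals that overlap widely. The bound genes of the small subunit were mRpS2, mRpS6, mRpS10, mRpS18B, mRpS23, mRpS24, mRpS26 and mRpS31. Those of the large subunit were mRpL4, mRpL18, mRpL20, mRpL23, mRpL24, mRpL32, mRpL34, mRpL37, mRpL39 and mRpL41. They include genes for proteins with bacterial counterparts (mRpS2, mRpS10, mRpL4, mRpL20) as well as for proteins without one.

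Replicate 1's own thresholded list placed a summit at 14 member promoters, where all genes reached 11.9%. Replicate 2's own list placed one at 17, where all genes reached 12.6%. Both lists held 11 of the genes, and 20 stood in at least 1 list. The matching shares of all genes are not given here, so whether this overlap differs from that of genes in general was not tested. In the authors' larger thresholded list, with 4745 peaks in place of 3827, 22 members were promoter-bound, against 16.1% of all genes. The 4 genes it added were mRpL21, mRpL42, mRpS7 and mRpS22.

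A group of 7 members carried summits far above the other 11. The strongest lay 143 bp upstream of mRpL41, a large-subunit protein without a bacterial counterpart, at chr2R:15217593-15217903, where replicate 1 gave 962 and replicate 2 gave 968. At mRpS10 (chr3R:15229384-15229682) the signals were 790 and 706, and at mRpS23 (chr2L:13835321-13835624) 688 and 714. These summits ranked 3, 10 and 13 among the 3815 conservative peaks on the chromosome arms, with conservative-list signals of 1921, 1496 and 1391. mRpL23, whose bacterial counterpart sits at the mouth of the exit tunnel, ranked 19 (chr3L:2373456-2373750), with 579 in replicate 1, 663 in replicate 2 and 1233 in the conservative list. Its summit lay 80 bp downstream of the TSS in a non-coding exon of the gene and 130 bp upstream of CG9004. It was the one strongest summit of the 18 that was not upstream of its member.

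The other 3 genes of this upper group stood lower but still within the first 226 peaks. mRpL20 had signals of 309 and 319 in replicates 1 and 2, mRpL24 had 302 and 295, and mRpS2, the counterpart of a bacterial protein of the small subunit's body, had 225 and 208. Their conservative-list signals were 617, 598 and 436. In each of the 7 the replicates differed by a log2 ratio between -0.20 and 0.16, and all 7 stood in both replicates' thresholded lists, at rank 244 or better. No gene of this upper group was low in either replicate.

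The 11 remaining summits had conservative-list signals of 75.7 to 155. In this lower group replicate signals ran from 37.7 to 78.4 in replicate 1 and from 36.9 to 72.1 in replicate 2. At mRpL32, whose bacterial counterpart is a zinc-binding protein of the large subunit, they were 78.4 and 72.1. At mRpS24 they were 67.7 and 64.7, at mRpS6 72.4 and 60.3, and at mRpL37 66.6 and 66.2. These 4 summits stood in both replicates' thresholded lists. mRpL4, whose bacterial counterpart lines the exit tunnel, had 73.6 in replicate 1, and no summit of replicate 2's ranked list lay within 150 bp of it. The weakest 3 were mRpS26 (44.7 and 42.8), mRpL39 (37.7 and 53.9) and mRpS31 (44.3 and 40.3), each in the thresholded list of replicate 2 but not of replicate 1. The summits of mRpS18B (44.1 and 36.9) and mRpL34 (41.6 and 46.4) stood in neither replicate's thresholded list. mRpL18 (41.4 and 46.1) had a second promoter summit 65 bp downstream of its TSS, with a signal of 13.9 and no match in either replicate's ranked list.

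**Figure D1:**
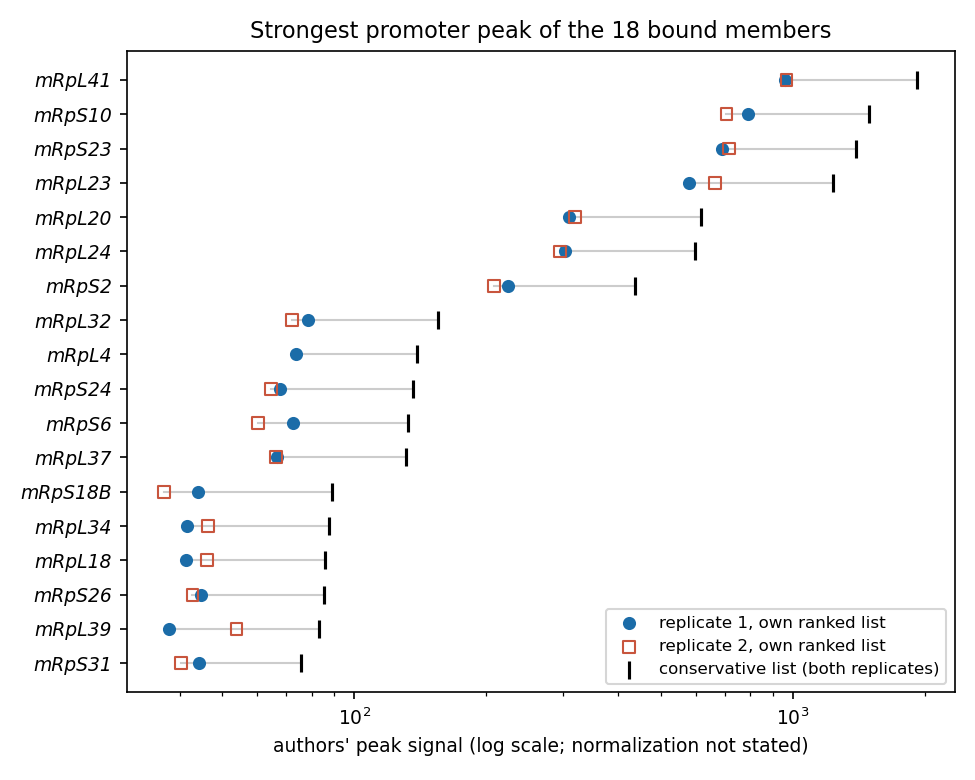
Authors' peak signal (log scale) at the strongest promoter summit of each of the 18 bound members, in replicate 1 (filled circles), replicate 2 (open squares) and the conservative list over both replicates (bars), with no replicate 2 value for mRpL4. The upper 7 genes run from 436 to 1921 in the conservative list and the lower 11 from 75.7 to 155. The replicate values differ most at mRpL39, at 37.7 and 53.9.

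Between mRpS2 and mRpL32 the conservative-list signal fell by a 2.81-fold step in which no member lay. Over all 1984 promoter-bound genes the same interval held 772 (38.9%), and 192 (9.68%) reached the signal of mRpS2 or more. Among the bound members the upper group made up 38.9%, and 4 of 18 (22.2%) had a summit among the 25 strongest peaks, against 31 of the 1984 (1.56%). Among the 100 strongest peaks the members were still 4 of 18, against 92 of the 1984 (4.64%). The division was drawn at the widest gap after the values were seen, so it is a description and has no test. The median signal of the 18 was 137.6, close to the 150.8 of all promoter-bound genes.

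Peak width changed with the signal. All 11 peaks of the lower group were 344 bp wide, and the upper 7 were 222 to 311 bp wide. The width of 344 bp was that of 74.1% of all conservative peaks on the arms and of 98.8% of those with a signal no higher than the lower group's. None of the 226 peaks at or above the upper group's lowest signal had it.

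Over the 17 summits found in both replicates the log2 ratio of replicate 1 to replicate 2 had a median of 0.03 (SD 0.19 across genes, range -0.51 to 0.26) and was above 0 in 10. The lowest was mRpL39, at -0.51. The highest were mRpS6 and mRpS18B, both at 0.26. These ratios divide signals of separate lists, whose scaling to each other is unknown.

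Most of these summits lay between divergent genes. In 16 of the 18 the strongest summit was also within 500 bp of the TSS of another protein-coding gene (88.9%, against 56.0% of all promoter-bound genes). In all 16 the other gene lay on the opposite strand. A summit in that position cannot be assigned to either gene. In 9 of the 16 the member's TSS was the nearer and in 7 the other gene's. The other 2, mRpL41 and mRpL4, had no second TSS in reach.

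At mRpS10 the summit was 128 bp upstream of the member and 129 bp upstream of Art3, an arginine methyltransferase gene. This summit sat near the middle of the shared interval. At mRpS23 the summit was 387 bp upstream of the member and 105 bp upstream of CenG1A, which encodes an Arf GTPase-activating protein. At mRpL20 it was 274 bp upstream of the member and 125 bp upstream of Icmt, and at mRpS2 157 bp upstream of the member and 65 bp upstream of Mon1. In these 3 the summit stood nearer to the neighbour. The summits of mRpL24, 129 bp upstream, and of betaggt-I, a geranylgeranyl transferase subunit gene 89 bp away, were likewise one and the same.

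In the lower group the neighbour was qless at mRpL32, Apc2 at mRpS24, Cip4 at mRpS6, Kua at mRpS18B, Dg at mRpL34, CG13698 at mRpS26, Prosbeta2 at mRpL39 and hzg at mRpS31. The summit was nearer to the member at mRpL32 (45 bp upstream), mRpS18B (53), mRpS6 (82), mRpS26 (89), mRpS31 (103) and mRpL39 (117). It was nearer to the neighbour at mRpS24 (281 bp upstream of the member, 140 of Apc2) and mRpL34 (230 bp, against 154 of Dg, the dystroglycan gene). At mRpL18 and Taz, the gene for the cardiolipin-remodelling enzyme tafazzin, the start sites lie so close together that the summit 142 bp upstream of mRpL18 fell 122 bp inside Taz, in a non-coding exon.

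**Figure D2:**
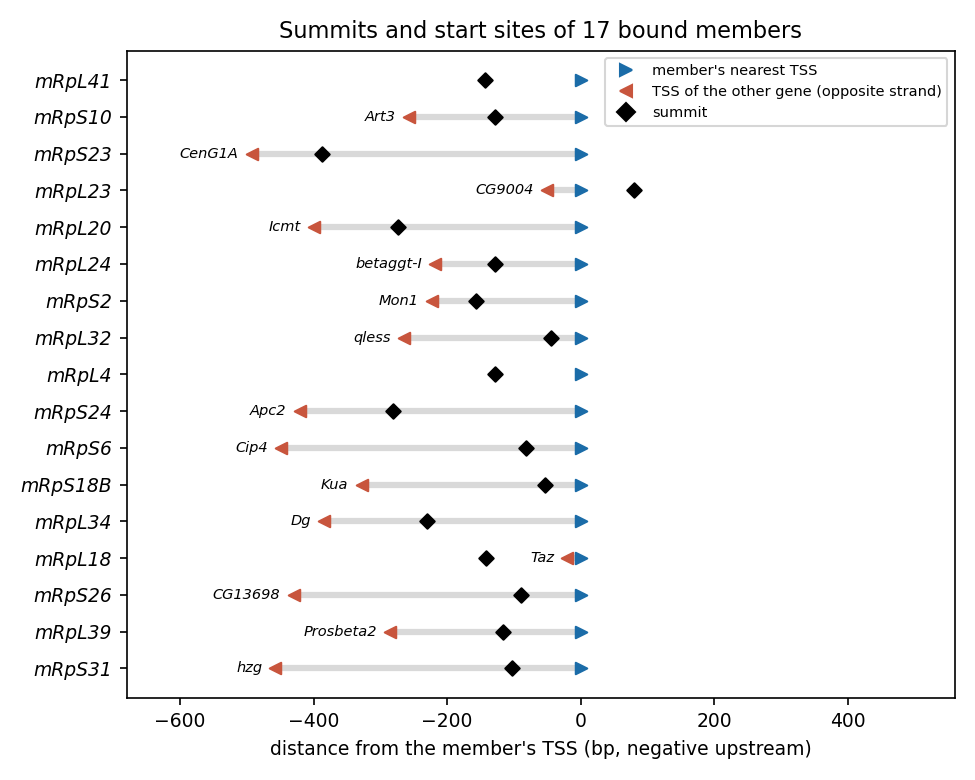
Position of the strongest promoter summit (diamonds) and of the neighbouring gene's TSS (left-pointing triangles) relative to the member's nearest TSS (right-pointing triangles, at 0), in bp with negative values upstream, for 17 of the bound members ordered by signal (mRpL37 is not drawn). In 13 of the 15 pairs drawn the summit lies between the start sites, and mRpL23 and mRpL18 are the exceptions.

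The strongest summits lay upstream of the member in 17 of 18 (94.4%, against 87.4% of all promoter-bound genes), at a median of -129 bp (quartiles -153.5 and -92.5). Over all promoter-bound genes the median was -134 bp, with quartiles of -222 and -71.0. The members nearest inside the 500 bp limit were mRpS23 at -387 and mRpS24 at -281. The nearest outside were mRpS25, with a summit at -555, and mRpL27, at 1251. No member lay within 50 bp of the limit.

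Neighbouring start sites, counted on either strand, were common among the members whether bound or not. Read against genes of the same class by this count, the bound share was close to the background. Another gene's TSS stood within 500 bp of 54 of the 73 members (74.0%), against 30.9% of all protein-coding genes. Among genes with such a neighbour, 16 of 54 members were promoter-bound (29.6%, 18.0% to 43.6%), against 26.2% of all. Among genes without one it was 2 of 19 (10.5%, 1.30% to 33.1%), against 8.84%. Both intervals include the value of all genes.

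A head-to-head TSS within 1000 bp was present at 58 members (79.5%), against 36.2% of all genes, and at each of the 18 bound ones. The distance between the start sites had a median of 356 bp in the 18 bound members and 217 bp in the 40 unbound ones with such a TSS, with ranges of 20 to 793 and 21 to 695 that overlap almost completely. Over all genes the medians were 288 and 304 bp. With up to 100 bp between start sites 2 of 18 members were bound, and with over 100 and up to 200 bp 0 of 4. With over 200 and up to 300 bp 6 of 11 were bound, with over 300 and up to 500 bp 8 of 20, and with over 500 and up to 1000 bp 2 of 5. The shares of all genes in these 5 classes were 20.7%, 19.0%, 37.2%, 28.6% and 17.0%. None of the 15 members without a head-to-head TSS in reach was bound, where all such genes reached 8.13%.

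**Figure D3:**
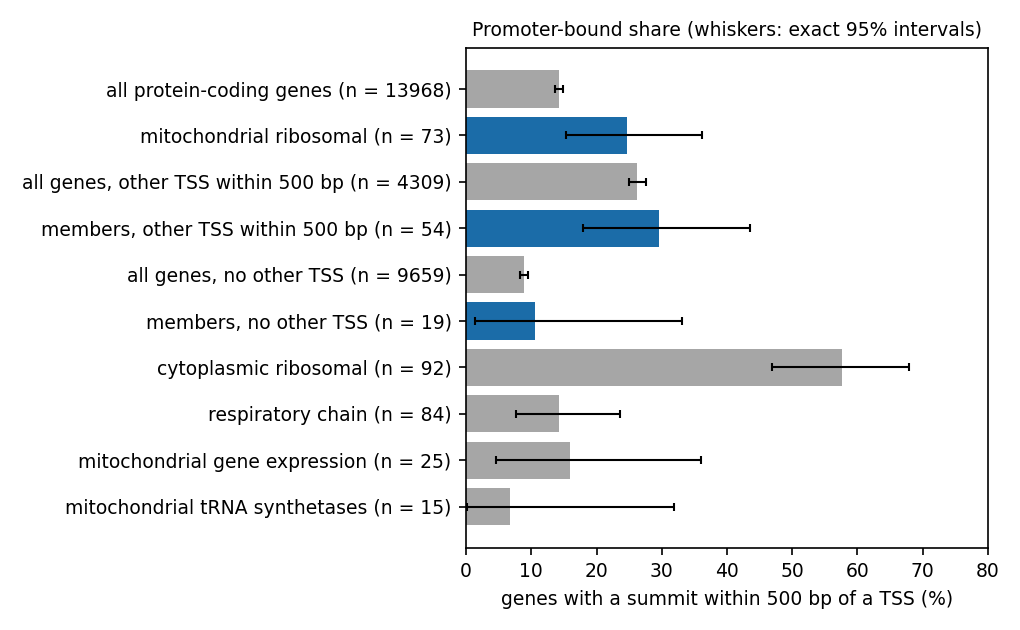
Share of genes with a conservative summit within 500 bp of a TSS, for all protein-coding genes, the members, both classes of each by the presence of another TSS within 500 bp, and 4 other gene lists, with exact 95% binomial intervals. The members' bars (dark) are at 24.7%, 29.6% and 10.5%, and the matching bars of all genes are at 14.2%, 26.2% and 8.84%.

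Taking the gene and 2000 bp on each side, 30 of the 73 members held a conservative summit (41.1%, 29.7% to 53.2%), against 28.2% of all protein-coding genes. Among genes with another TSS within 500 bp it was 44.4% of members against 39.6% of all. Among genes without one it was 31.6% against 23.2%. Members are short, with a median gene length of 909 bp against 2164.5 bp, so most of this window was flank. With no flank, 3 members held a summit within the gene itself (4.11%), below the 10.1% of all genes. The summit reached 12 members that were not promoter-bound, and in 11 of them the strongest such summit lay within 500 bp of another gene's TSS. By definition these summits were away from the member's own promoter. The matching share of all genes is not given here, so whether the members differ from genes in general was not tested.

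The strongest of these was 1956 bp upstream of mRpL46 (chr3L:1775384-1775609), at the promoter of PolD2, a DNA polymerase delta subunit gene, with 281 in replicate 1 and 233 in replicate 2. At mRpL40 (199 and 170) the summit stood between Irbp and mgr, and at mRpL28 (166 and 162) between CG3792 and Gmd. At mRpL27 (83.3 and 99.5) it lay at RpL27A, a gene for a cytoplasmic ribosomal protein. At mRpL13 (78.5 and 87.3) it was in an intron of CG10602, and at mRpS9 (82.9 and 71.6) in an intron shared by mRpS9 and wtrw. Each of these was nearer to another gene's TSS than to the member's. The remaining ones, at mRpL19, mRpL51, mRpS25, mRpL33, mRpL50 and mRpL35, had conservative-list signals of 61.0 to 109. The summit near mRpL33 was in an intron of norpA, away from any promoter. The other 43 members had no summit in this window.

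The 55 members that were not promoter-bound still had weak peaks in most cases. In the ranked list over both replicates, which holds 129110 peaks of all strengths, 58 members had a summit within 500 bp of a TSS (79.5%), against 71.8% of all genes. Among the 55 it was 40, with signals of 4.80 to 69.3 and a median of 32.7, close to the median of 31.3 of all genes without a conservative promoter summit. None of the 40 reached a score of 830, the lowest in the conservative list. As members without a conservative summit the 40 were unlikely to reach it, so this is no separate result. mRpL21, mRpL42 and mRpS22, which stood in the larger list, had scores of 807, 693 and 747 in the ranked list. The strongest of the 40 was mRpL42 at 69.3, with 47.5 in replicate 1 and 26.3 in replicate 2. It was followed by mRpL47 (63.4), mRpS11 (58.7), mRpL2 (56.2), mRpL11 (55.6) and mRpS22 (54.5). mRpL2 is the counterpart of the bacterial protein next to the peptidyl transferase centre, and mRpL11 that of a protein of the stalk base. All of these signals were below that of the weakest bound member, mRpS31 at 75.7. The ranked-list scores were 324 at mRpL47, 581 at mRpS11, 51 at mRpL2 and 388 at mRpL11, against 1000 at mRpS31.

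At mRpS7 the replicates parted. A peak of 75.0 with the full score of 1000 stood in replicate 1, and no peak within 500 bp of the TSS was listed in replicate 2 or in the ranked list over both. mRpL17 stood in the thresholded list of replicate 2, at 51.2, against 19.7 in replicate 1. Of the 55, 15 had no peak in the ranked list over both replicates, and 7 had none in either replicate's ranked list as well. A missing peak is a limit of these lists, and with no read counts in them its depth is unknown. The member farthest from any conservative summit was mRpS5, on the same arm as its nearest one but 1625526 bp away.

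**Figure D4:**
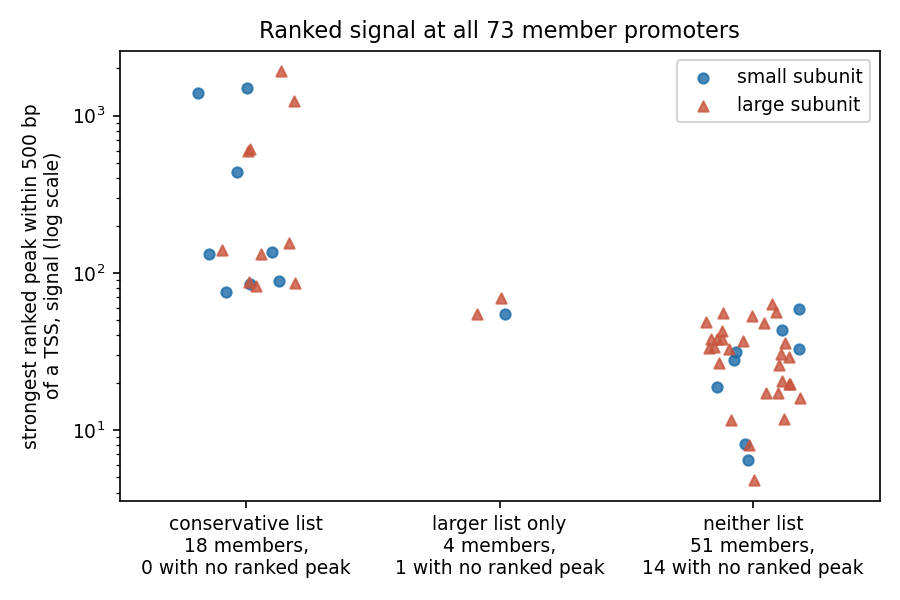
Strongest ranked peak within 500 bp of a TSS (signal over both replicates, log scale) for the members, as small-subunit (circles) and large-subunit (triangles) genes, grouped by their place in the thresholded lists; horizontal scatter within a group has no meaning. The 18 bound members lie at 75.7 to 1921 and the others at 4.80 to 69.3, with 15 members without a ranked peak not drawn.

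By chromosome arm, 5 of 12 members on 2L were promoter-bound, 3 of 12 on 2R, 6 of 17 on 3L, 4 of 21 on 3R and 0 of 11 on X. Of all genes, 13.9% on 2L were bound, 14.4% on 2R, 15.6% on 3L, 14.4% on 3R and 12.9% on X. A count of 0 of 11, read with a limit of 3 counts, allows a share of up to 27.3%.

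The other genes of mitochondrial gene expression had promoter summits in a few cases. tko and bonsai, mitochondrial small-subunit protein genes named for their mutants, had no promoter summit. Of 15 mitochondrial aminoacyl-tRNA synthetase genes, which charge the mitochondrial tRNAs, 1 was bound (ProRS-m, conservative-list signal 191). Of 25 genes for mitochondrial DNA maintenance, transcription, RNA processing and translation factors, 4 were bound (16.0%). PNPase, which encodes an RNA-degrading exonuclease, had 697 in replicate 1 and 717 in replicate 2, and SLIRP2, an RNA-binding protein gene, had 406 and 356, both in the range of the members' upper group. The mitochondrial DNA-binding protein gene mtSSB (72.0 and 114) and SLIRP1 (79.5 and 42.1) were lower. The summit of ProRS-m was shared with CG42304 and Snup, that of SLIRP2 with Mkk4 and that of SLIRP1 with anox. Such shared summits cannot be assigned to either gene. Those of PNPase and mtSSB were not shared.

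Of 84 respiratory chain and ATP synthase genes, 12 were bound (14.3%), at the level of all genes, the strongest being ND-ASHI (170 and 184). The cytoplasmic ribosomal protein genes had the highest share of the lists counted, with 53 of 92 bound (57.6%, 46.9% to 67.9%), although only 40.2% of them have another TSS within 500 bp. Their strongest, RpS27 (204 and 292) and RpL7 (218 and 225), reached conservative-list signals of 513 and 451, below the first 6 members. The summits of ND-ASHI, RpS27 and RpL7 were likewise shared, with Fum1, Nup37 and Ripalpha. The difference between the lists was not tested.

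Of 9 known motifs searched at the members' summits, CAGCTG and TATCGATA were in a larger share of windows than over all promoter summits, and the other 7 in a smaller share or in none. Within 100 bp of the 18 strongest summits, on either strand, AGGAC, the core of the site known for one tramtrack isoform, occurred in 1 window (5.56%), at mRpS31, against 8.23% of the 1567 promoter summits of all genes. The longer GGTCCTGC occurred in none, against 0.0638%. GAGAG occurred in 2 (11.1%, against 22.0%), GTATNTTT in 1 (5.56%, against 11.0%), and GGTCACAC, CACGTG and GCGCATGC in none (3.45%, 2.17% and 0.511%). The E-box CAGCTG was found in 5 (27.8%, against 10.8%), namely mRpS2, mRpL32, mRpS18B, mRpL34 and mRpL18. TATCGATA, the DNA replication-related element, was found in 3 (16.7%, against 5.42%), namely mRpL32, mRpS18B and mRpL39. A match describes the letters and shows no binding. The windows of the members had a median GC content of 31.3%, against 35.3% of all promoter summits.

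The word AAATTAA, in capitals in the windows of mRpS10, mRpS23, mRpL20, mRpL24 and mRpS2 printed above, came from a search over the words shared by the 7 summits of the upper group, within 60 bp of each. Of 612 words of 7 bases compared it was in the most windows, 6 of 7, and the next in 5. Words of 6 and 8 bases were also looked at. Besides the printed windows, that of mRpL23 held AAATTAA, and that of mRpL41, the strongest summit of the group, lacked it. The word was in 2 of the 11 windows of the lower group and in 28 of those at the 100 strongest conservative summits. It was in 17.0% of all promoter summits and in 14.3% of all conservative summits. The upper group's windows had a median GC content of 25.6%, against 31.4% in the lower group and 33.1% over all conservative summits, and an AT-rich word is more frequent in AT-rich windows. How far base composition accounts for the count was not tested.

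Of the motifs searched, the E-box CAGCTG was the one found in most member promoters. In the 300 bases from 250 before to 50 after the TSS it occurred in 41 of 73 members (56.2%), against 18.0% of all protein-coding genes. Here a single TSS per gene was used, the first listed, whereas binding was read at any TSS of a gene. Most members have only a single annotated TSS. How this choice affects the shares of all genes was not tested. It was in 14 of the 26 small-subunit and 27 of the 47 large-subunit genes, and in 9 of the 18 promoter-bound and 32 of the 55 unbound ones. Split by neighbouring start sites it was in 57.4% of members with another TSS within 500 bp, against 24.6% of all such genes, and in 52.6% of those without, against 15.0%. The respiratory chain genes had it in 27.4%, the mitochondrial aminoacyl-tRNA synthetase genes in 7 of 15, and the cytoplasmic ribosomal protein genes in 8.70%. TATCGATA was in 16 of the 73 (21.9%), against 8.91% of all genes, with 6 of the 18 bound members and 10 of the 55 unbound ones.

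Wholly within 30 bp of this first listed TSS lay an E-box in 29 members (39.7%), against 6.41% of all genes, and in 7 of the 18 bound and 22 of the 55 unbound members. Other matches lay farther off, 5 of them from -250 to -220 bp (6.85 per 100 genes, against 1.53) and 5 from -70 to -40 bp (6.85, against 2.53). Of the matches from -250 to -220 bp, those of mRpS2, mRpL24, mRpL32 and mRpL54 lay near the TSS of a head-to-head gene. That TSS was 222, 218, 264 and 242 bp upstream of the member's. At mRpL51 it was 31 bp upstream. The median start of a match was 0 bp from the TSS in the members (quartiles -34.0 and 15.8) and -54.0 bp in all genes (quartiles -139 and -5.00). The strongest tramtrack summits of the 18 bound members had a median of -129 bp from the nearest TSS. The E-box matches are from bound and unbound members and from a narrower window, so these medians are not over like genes or windows.

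**Figure D5:**
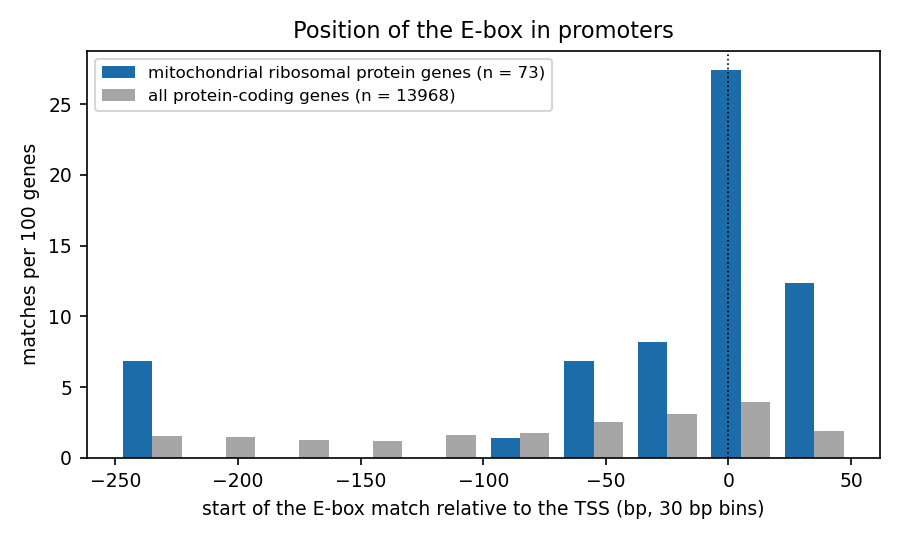
Matches to the E-box CAGCTG per 100 genes in bins of 30 bp along the promoter, by distance of the match's start from the TSS (dotted line), for the 73 members (dark) and all 13968 protein-coding genes (grey). The members' bars are highest in the bin from -10 to 20 bp, at 27.4 matches per 100 genes against 3.92.

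The 150 bases from 120 before to 30 after the TSS are shown for the bound members in which an E-box and TATCGATA both lay within 100 bp of the summit, on the member's strand, with both motifs in capitals. These genes were chosen after their values were seen. The windows are chr3R:31252752-31252901 for mRpL32 and chr2L:20097224-20097373 for mRpS18B. In both genes the motifs lie downstream of the summit, in mRpL32 ahead of the TSS and in mRpS18B at the TSS and past it.
mRpL32: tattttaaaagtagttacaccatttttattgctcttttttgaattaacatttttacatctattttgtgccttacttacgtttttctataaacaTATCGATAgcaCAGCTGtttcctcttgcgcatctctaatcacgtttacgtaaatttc
mRpS18B: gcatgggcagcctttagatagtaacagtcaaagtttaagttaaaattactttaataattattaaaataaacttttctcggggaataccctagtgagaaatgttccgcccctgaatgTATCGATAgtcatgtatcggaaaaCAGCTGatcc

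The 70 bases from 40 before to 30 after the TSS are shown for 4 unbound members with the E-box within 30 bp of the TSS. They are the first by symbol among those considered for printing, with only the E-box in capitals. The windows of mRpL17 and mRpL19 also hold TATCGATA, left in lower case. They lie at chr3R:14511798-14511867 for mRpL11, chr3L:264739-264808 for mRpL17, chr3R:8674069-8674138 for mRpL19 and chr3L:11120807-11120876 for mRpL2. None of the 4 had a conservative summit within 500 bp, and their strongest ranked peaks had signals of 55.6, 53.0, 16.1 and 56.2.
mRpL11: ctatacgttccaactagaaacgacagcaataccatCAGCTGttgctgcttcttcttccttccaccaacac
mRpL17: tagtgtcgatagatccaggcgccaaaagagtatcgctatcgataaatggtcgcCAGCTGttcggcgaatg
mRpL19: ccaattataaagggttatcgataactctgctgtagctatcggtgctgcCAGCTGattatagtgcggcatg
mRpL2: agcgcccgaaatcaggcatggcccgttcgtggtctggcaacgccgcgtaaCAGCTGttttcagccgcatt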

How the data were processed

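Both libraries are ChIP-seq of tramtrack-eGFP from whole embryos, sonicated to 200 to 800 bp, per the labels. The authors deposited narrowPeak lists in dm6. No aligner, peak caller or control is given in the sources used here. Each deposited peak has a signal value and an IDR score (irreproducible discovery rate, higher for more reproducible ranks), per the standard columns of this format and the deposited listings; the lists have no header. The lists give no read counts, so depth is unknown. The 8 columns of the ranked list over both replicates that describe its source lists were not used. The signal was used within a list, except where the replicates' signals were set side by side or divided as log2 ratios. No score was tested.

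The Ensembl annotation gave the TSSs, and the RefSeq genome of the same assembly gave the bases, after arm lengths were compared. A summit is column 2 plus column 10. Replicate signals are those of the nearest summit within 150 bp in that replicate's own ranked list. The work used scipy 1.17.1 and pandas 2.3.3 in Python 3.11.15, with matplotlib 3.10.9 and numpy 2.4.6. The counting was tested on simulated data. Intervals are exact binomial (Clopper-Pearson), and the limit for a count of 0 is 3 counts of the total.

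The members, lists and motifs were chosen with earlier results of these data known. Named genes are the 12 strongest and 3 weakest bound members, those with more than 1 promoter summit, up to 6 bound in the locus only, the 6 strongest unbound, 2 on each side of the 500 bp limit and up to 4 per other list. The remaining bound members, mRpS7, mRpL17 and mRpS5 were named after their values were seen. Of the 6 summit windows that the rule for sequences gives, that of mRpL23, in a non-coding exon, was not printed. A neighbouring gene is not reported here. mEFG2, of the factor list, matched no symbol. No paired analysis was possible because there is 1 group. Alternatives were other lists, widths, gene assignments and each replicate alone.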

Additional observations from a re-analysis of the deposited data

How the results depend on the processing

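The share of promoter-bound members, 24.7% (18 of 73) against 14.2% of all genes, was the higher of the pair under each alternative run. None of the alternatives divided genes by neighbouring start sites. So divided, it was 29.6% against 26.2% with another TSS within 500 bp, and 10.5% against 8.84% without. With replicate 1's or replicate 2's own list alone the number bound was 14 to 17 members (19.2% against 11.9%, and 23.3% against 12.6%). It was 12 with peaks at or above the list's median signal (16.4% against 8.75%) and 12 with each summit given only to the nearest TSS (16.4% against 10.5%). It was 15 with promoters of 250 bp (20.5% against 11.0%), 19 with 1000 bp (26.0% against 16.9%) and 19 with whole peaks (26.0% against 15.2%). The number bound in the locus, 30 (41.1% against 28.2%), was 23 to 29 with either replicate alone and 19 with peaks at or above the median signal (26.0% against 18.0%). With no flank it was 3, and the order turned (4.11% against 10.1%). The share of strongest summits upstream of the member was 85.7% to 94.1% with either replicate alone. The share of bound members with a second gene in reach, 88.9% against 56.0%, was 66.7% against 45.0% when the other TSS had to lie within 250 bp. It was 100% against 63.1% within 1000 bp and 86.4% against 54.1% with the larger list. The median percentile of the members' strongest summits was 50.1 among promoter peaks and 57.3 among all conservative peaks. Among all peaks of a replicate's own thresholded list it was 71.9 in replicate 1 and 45.2 in replicate 2. The value of replicate 1 fell in the gap between mRpS2 (92.7) and mRpL32 (51.1). The E-box CAGCTG, taken as the leading motif after its values were seen, was in 27.8% of members' windows within 100 bp of the summit, against 10.8%. Within 50 bp it was in 5.56% against 4.02%, 1 of the 18 windows, and within 150 bp in 50% against 20.3%. In the 300-base promoters of all members it was in 56.2% against 18.0%. A wider window holds more matches by construction; the other causes were not tested. With summit windows of 30 or 100 bp, added after seeing the data, AAATTAA was in 71.4% and 85.7% of the upper group's windows. The word was chosen within 60 bp of these same summits. Its share within 100 bp could therefore not be lower than within 60 bp, and neither width tests the word.

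Peak lists with no read counts and 1 group of 2 libraries limit what can be said: weak sites below the threshold are not shown to be unbound, and a summit between divergent genes cannot be assigned to either.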
